A study of Homo sapiens with 2 samples.

Results

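The canonical Wnt pathway was described here by 10 genes: the co-receptors LRP5 and LRP6, the Dishevelled genes DVL1, DVL2 and DVL3, the destruction complex genes AXIN1, AXIN2, APC and GSK3B, and CTNNB1, which encodes beta-catenin. They are defined by gene symbol, with no measured value in the rule, and all 10 were found among the 24462 gene symbols of the count tables. The libraries came from MDA-MB-231, an established human triple negative breast cancer line, and from RT-R-MDA-MB-231, its derivative obtained by repeated X-ray exposures of 2 Gy until 50 Gy had been given. Both lines grew in RPMI 1640 with 10% fetal bovine serum, the parental line was not described as irradiated, and each line gave 1 library of total RNA read mainly at the transcript ends (a 3′ tag kit). With 1 library per line there was no replicate check and no test across cultures, so no p-value is given. The labels do not say whether the RT-R line is a single clone or a mixed population.

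In cells without a Wnt signal, the scaffold proteins axin and APC hold beta-catenin next to casein kinase 1 and glycogen synthase kinase 3, whose phosphorylation marks it for ubiquitination and destruction. A Wnt ligand joins a Frizzled receptor to LRP5 or LRP6, Dishevelled gathers at the receptors and draws axin to the membrane, and beta-catenin escapes destruction and acts with TCF/LEF factors in the nucleus. Much of this control lies in protein stability and phosphorylation, which transcript counts do not measure. The title of the series names LRP6, Wnt and beta-catenin signalling, and the comparison of the RT-R with the parental library asks how the transcripts of this core differ.

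The parental library held 9255008 counts and the RT-R library 10014804. All 10 genes passed the minimum of 20 counts in a library that 12644 symbols passed. The labelled line was checked by its markers, with counts given as parental and RT-R. The 5 mesenchymal-type genes summed to 14193 and 21732, led by AXL and VIM. Of the same list, CD44 had 2560 and 3129 counts, ZEB1 320 and 458, and SPARC only 8 and 28. Of the luminal list (197 and 121 in all), the receptor genes ESR1 (0 and 1) and PGR (0 and 0) were at or near 0, while GATA3 (152 and 113), FOXA1 (11 and 7) and TFF1 (34 and 0) were detected. The leukocyte list summed to 14 and 39, all from CD14, and the endothelial list to 224 and 56, nearly all from PECAM1 (223 and 50). The fibroblast list summed to 52 and 32, mostly PDGFRB. The epithelial list summed to 6646 and 6073, mostly from KRT19 (3484 and 2585) and KRT18 (2525 and 2816). In the same list KRT8 had 590 and 578 counts, EPCAM 15 and 26, and CDH1 32 and 68. The part of these differences in the results below was not tested. Ratios below are of counts scaled by library size, and each bracket gives a 95% interval that covers counting error only, not variation between cultures.

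Promoter sequences are shown for the genes with the lowest and the highest ratio among those with an entry in the RefSeq promoter table, LRP5 and AXIN1, and for CTNNB1 as the gene of beta-catenin. Each run is the 250 bases before the annotated start on the gene's strand, 5′ to 3′, on assembly GRCh38.p14. The positions are chr11:68312341-68312590 on the plus strand for LRP5, chr16:352724-352973 on the minus strand for AXIN1 and chr3:41199255-41199504 on the plus strand for CTNNB1. Capitals mark the GC box, GGGCGG or its reverse complement CCGCCC.
LRP5: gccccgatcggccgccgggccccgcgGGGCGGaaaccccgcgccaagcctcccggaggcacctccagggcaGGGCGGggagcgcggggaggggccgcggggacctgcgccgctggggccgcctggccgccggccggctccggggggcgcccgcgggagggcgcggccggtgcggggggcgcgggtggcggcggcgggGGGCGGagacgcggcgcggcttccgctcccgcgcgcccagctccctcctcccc
AXIN1: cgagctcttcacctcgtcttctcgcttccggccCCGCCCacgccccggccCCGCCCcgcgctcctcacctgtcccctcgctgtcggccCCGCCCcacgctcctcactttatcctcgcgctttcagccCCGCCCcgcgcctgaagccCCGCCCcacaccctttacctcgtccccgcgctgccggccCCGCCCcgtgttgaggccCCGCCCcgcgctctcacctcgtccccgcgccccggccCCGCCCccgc
CTNNB1: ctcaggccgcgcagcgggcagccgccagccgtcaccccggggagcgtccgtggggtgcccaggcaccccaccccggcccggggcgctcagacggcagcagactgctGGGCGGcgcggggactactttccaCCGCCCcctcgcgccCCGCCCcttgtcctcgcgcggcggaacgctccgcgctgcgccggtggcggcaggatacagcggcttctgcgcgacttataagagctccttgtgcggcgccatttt
The 3 windows held 3, 8 and 3 GC boxes, and their GC contents were 87.2%, 77.6% and 74.4%. The table had 9 entries for 8 of the 10 genes, with 2 for APC. Of these 9, 8 held a GC box, against 42.6% of all 35116 promoter windows, and 8 lay above the median GC content of 58%. The TCF/LEF core CTTTGA, searched on both strands and able to share at most 1 base with a GC box match, was in 0 of the 9 windows and in 11.2% of all windows. A GC box was thus present in the window of LRP5, lower in RT-R, as well as in that of AXIN1, higher in RT-R.

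The co-receptors and beta-catenin were lower in the RT-R library, while the other 7 genes were level or higher. LRP5 was the lowest of the 10 and AXIN2 the highest. No gene reached a 2-fold ratio, and AXIN2 alone passed 1.5-fold. Of the 10 genes, 4 (DVL1, DVL3, AXIN1 and AXIN2) had an interval wholly above equal expression, as did 27.7% of all measured genes, and 3 (LRP5, LRP6 and CTNNB1) had one wholly below it, as did 30.4%. At 1.5-fold with the same interval rule, 1 of 10 was higher against 13.7% of all measured genes, and 0 of 10 lower against 11.9%. At 2-fold the counts were 0 and 0, against 6.89% and 3.97%. These member counts lie near the shares over all genes.

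**Figure D1:**
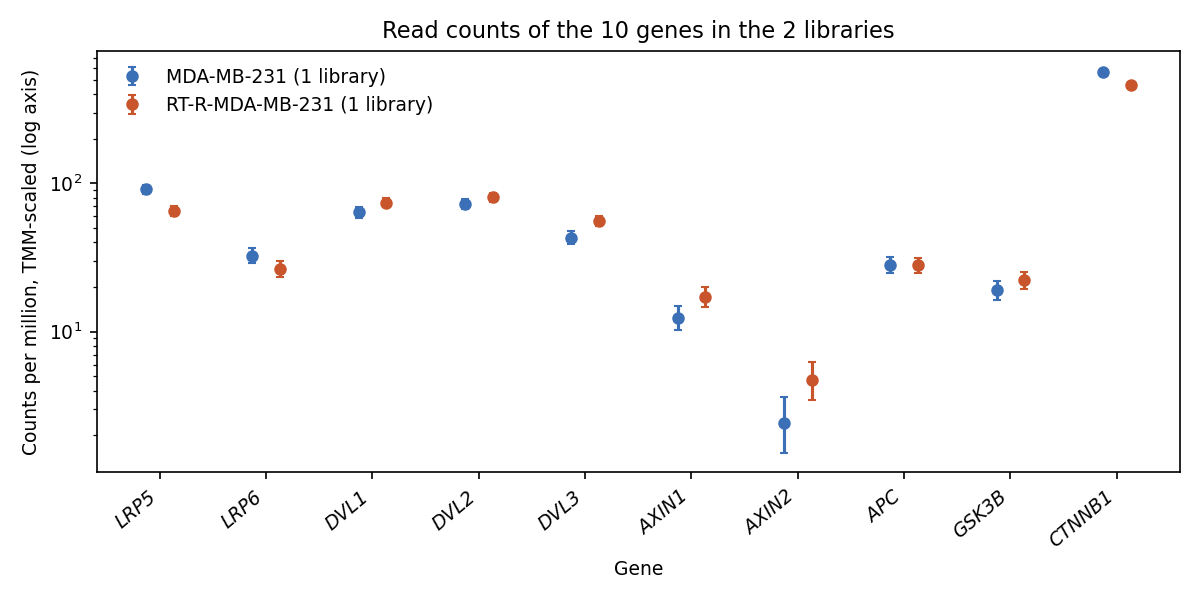
CPM, scaled counts per 1000000 (log axis), of each gene in the parental library (blue) and the RT-R library (orange), with exact 95% Poisson intervals for counting error. CTNNB1 lies highest in both libraries and AXIN2 lowest, and LRP5, LRP6 and CTNNB1 are the genes whose RT-R point lies below the parental one.

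LRP5 and LRP6 are single-pass receptors whose cytoplasmic tails, once phosphorylated, bind axin. LRP5 had 831 parental and 665 RT-R counts, or 91.2 and 65.4 scaled counts per 1000000 (CPM). LRP6 had 296 and 269 counts, or 32.5 and 26.5 CPM. Both were lower in RT-R, LRP5 by 1.39-fold (1.26 to 1.55) and LRP6 by 1.23-fold (1.04 to 1.45). In a bulk library, fewer cells with a transcript and less of it per cell cannot be told apart. Summed, the co-receptor counts went from 1127 to 934, 1.35-fold lower (1.23 to 1.47). Their shares differed by less than counting error: LRP6 made up 26.3% of the summed counts in the parental library (exact binomial interval 23.7 to 28.9) and 28.8% in RT-R (25.9 to 31.8). The odds ratio of LRP6 to LRP5, RT-R against parental, was 1.14 (0.93 to 1.39), which does not depend on library scaling and whose interval included 1. A difference in balance within this interval was not detectable at this depth. LRP6 overlaps BCL2L14 on the opposite strand, which had no count in either library. Other annotated genes on that strand also overlap LRP6 but are not among the counted symbols.

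The Dishevelled proteins are cytoplasmic adaptors that polymerise at active receptors. DVL1 had 580 parental and 752 RT-R counts (63.6 and 74.0 CPM), a ratio of 1.16 (1.04 to 1.30). DVL2 had 666 and 820 (73.1 and 80.7 CPM), a ratio of 1.10 (0.995 to 1.22). DVL3 had 391 and 568 (42.9 and 55.9 CPM), a ratio of 1.30 (1.14 to 1.49). All 3 were higher in RT-R, and the interval of DVL2 reached just below equal expression. With scaling by total counts its interval lay above 1 (ratio 1.14, 1.03 to 1.26), as it did with the upper quartile (1.13, 1.02 to 1.26). With the DESeq2 median of ratios the interval still included 1, by a very small margin (1.11, 0.99999 to 1.23). Summed over the 3 genes, counts went from 1637 to 2140, a ratio of 1.17 (1.099 to 1.25). DVL2 was the most counted of the 3 in both libraries, with 40.7% of the family's counts in the parental line and 38.3% in RT-R. DVL1 had 35.4% and 35.1%, and DVL3 23.9% and 26.5%. The odds ratio of each gene against the other 2 was 0.987 (0.861 to 1.13) for DVL1, 0.906 (0.792 to 1.04) for DVL2 and 1.15 (0.990 to 1.34) for DVL3. None of these intervals excluded 1, so no change in family makeup was resolved. DVL1 overlaps TAS1R3 on the opposite strand, which had 0 and 2 counts.

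**Figure D2:**
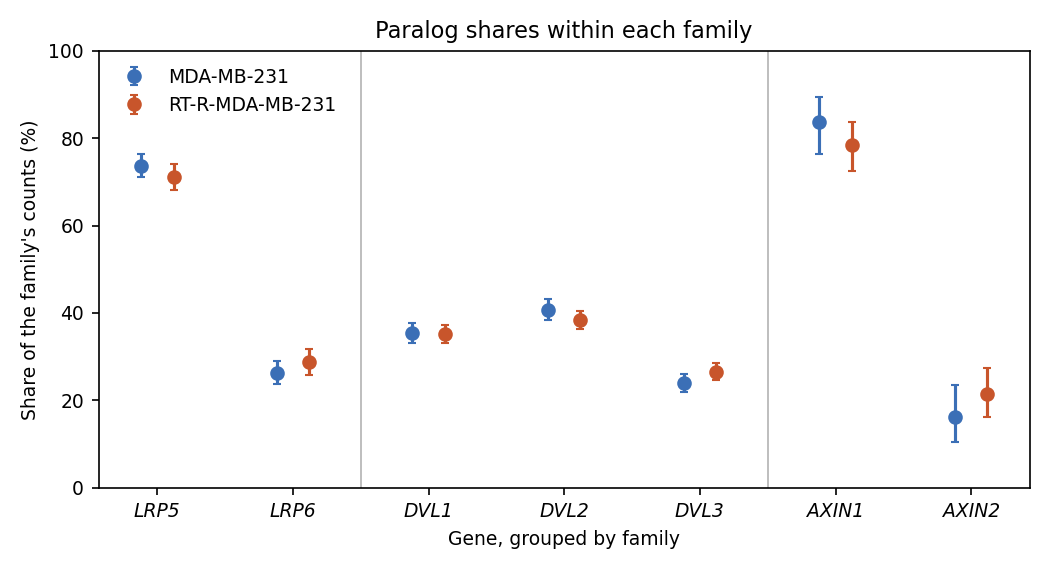
Share of each family's counts (percent) taken by each paralog in the parental (blue) and RT-R (orange) library, with exact 95% binomial intervals for counting error. The intervals of the libraries overlap for every gene, and LRP5, DVL2 and AXIN1 hold the largest share of their family in both.

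Axin is the scaffold that binds beta-catenin, APC and the kinases, and AXIN2 is also a well-known transcriptional target and feedback inhibitor of the pathway. AXIN1 had 113 parental and 175 RT-R counts, or 12.4 and 17.2 CPM, a ratio of 1.39 (1.09 to 1.78). AXIN2 had 22 and 48 counts, or 2.41 and 4.72 CPM, a ratio of 1.96 (1.16 to 3.40). Both axin genes were higher in RT-R, and AXIN2 had the highest ratio of the 10 with the widest interval, because it rests on the fewest reads. The axin counts summed to 135 and 223, a ratio of 1.48 (1.19 to 1.85). AXIN2 made up 16.3% of them in the parental library (10.5 to 23.6) and 21.5% in RT-R (16.3 to 27.5). The odds ratio of AXIN2 to AXIN1 was 1.41 (0.784 to 2.59), so whether the 2 axin genes differed in their ratio was not resolved.

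APC is the large scaffold of the complex and a tumour suppressor, and GSK3B encodes the kinase that phosphorylates beta-catenin there. APC had 256 parental and 286 RT-R counts, which after scaling were level at 28.1 CPM in each, a ratio of 1.00 (0.843 to 1.19). GSK3B had 173 and 227 counts, or 19.0 and 22.3 CPM, a ratio of 1.18 (0.961 to 1.44). Neither interval excluded equal expression. At this depth the intervals leave room for differences up to their bounds, and a level ratio does not show that APC was unchanged. The 4 complex genes together had 564 and 736 counts, a ratio of 1.17 (1.05 to 1.31).

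CTNNB1, whose product both carries the Wnt signal and links cadherins to the cytoskeleton, had by far the most reads of the 10, 5158 and 4703 counts or 566 and 463 CPM. It was 1.22-fold lower in RT-R (1.18 to 1.27), the narrowest interval of the 10. ULK4, which overlaps it on the opposite strand in the GENCODE v29 annotation, had only 29 and 21 counts. For every 100 CTNNB1 counts there were 10.9 counts of the 4 complex genes, without GSK3A, in the parental library and 15.6 in RT-R. The odds ratio of complex to CTNNB1, RT-R against parental, was 1.43 (1.27 to 1.61), and like the other odds ratios it does not depend on scaling. It holds for these 4 genes only, and the odds ratio with GSK3A (555 and 511 counts, lower in RT-R) added was not computed. Taken singly against CTNNB1 the odds ratios were 1.23 (1.03 to 1.46) for APC, 1.44 (1.17 to 1.77) for GSK3B, 1.70 (1.33 to 2.18) for AXIN1 and 2.39 (1.41 to 4.17) for AXIN2. All 4 intervals lay above 1, but all 4 are set against CTNNB1, itself lower in RT-R, and so are not separate results. APC lay above 1 here although its own ratio was 1.00. Counts per CTNNB1 count are ratios of reads and not of proteins, and the stoichiometry of the complex was not measured.

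**Figure D3:**
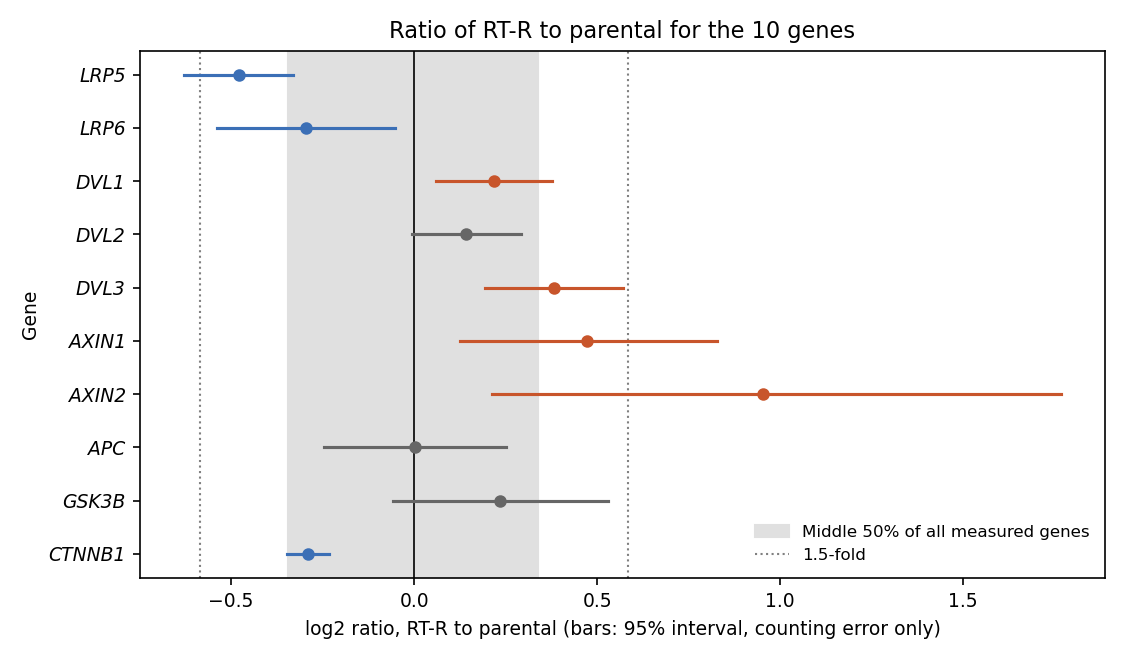
Log2 ratio of RT-R to parental for each gene (points) with its 95% counting interval (bars), orange where the interval lies above 0, blue where below and grey where it includes 0. Grey shading is the middle 50% of all 12644 measured genes (-0.34 to 0.34) and dotted lines mark 1.5-fold. 6 of the 10 points lie inside the shading, and AXIN2 (0.95) alone lies beyond a dotted line.

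Set against all measured genes, the 10 reached neither end of the range. Their median log2 ratio was 0.18, with 7 above 0 and 3 below, against a median of -0.013 and 49.0% above 0 over all measured genes. The median absolute log2 ratio was 0.29 for the 10 and 0.34 for all. LRP5, with a log2 ratio of -0.48, stood at percentile 17.2 of all measured genes, CTNNB1 (-0.29) at 28.4 and LRP6 (-0.29) at 28.1. APC (0.0025) stood at percentile 51.2, DVL2 (0.14) at 62.1, DVL1 (0.22) at 67.6 and GSK3B (0.23) at 68.8. DVL3 (0.38) stood at 77.2, AXIN1 (0.47) at 81.2 and AXIN2 (0.95) at 92.5. None of the 10 lay below percentile 17.2 or above percentile 92.5.

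Every gene was also set against every other by the odds ratio of their counts, which removes library scaling. Of 45 pairs, 25 had an interval that excluded 1. The share over pairs of all measured genes was not computed, so these pair counts cannot be called particular to the 10. For single genes, 58.1% of all measured genes had an interval that excluded equal expression. The following division was drawn up with the ratios in view and so fixes the direction: 20 of the 21 pairs that join LRP5, LRP6 or CTNNB1 to one of the other 7 genes excluded 1. The exception was LRP6 with APC, at 0.814 (0.638 to 1.04). Among the other 7 genes, 4 of 21 pairs excluded 1: APC lay below DVL3, AXIN1 and AXIN2, and DVL2 below AXIN2. LRP6 and CTNNB1 had nearly the same ratio, with an odds ratio of 0.997 (0.838 to 1.19), while LRP5 lay lower than CTNNB1 at 0.878 (0.785 to 0.980). These intervals were not adjusted for the number of pairs.

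By level, CTNNB1 came first and GSK3B, AXIN1 and AXIN2 last, in that order, in both libraries. These are counts of transcript ends not divided by length, so how well each annotated end was captured also enters the order. In the parental library LRP5 came second, followed by DVL2, DVL1, DVL3, LRP6 and APC. In RT-R the second place went to DVL2, then DVL1, LRP5, DVL3, APC and LRP6. LRP5 thus passed from above DVL1 and DVL2 to below them. In RT-R its Poisson interval (60.5 to 70.6 CPM) overlapped that of DVL1 (68.8 to 79.4) but not that of DVL2 (75.2 to 86.4). The Poisson intervals of LRP6 and APC overlapped in both libraries, so their exchange of places was within counting error.

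The position of each gene was described by the median log2 ratio of up to 15 measured genes on each side in the RefSeq gene order. CTNNB1 (chromosome 3) had a neighbour median of -0.24, close to its own -0.29, and LRP6 (chromosome 12) had -0.18 beside -0.29. LRP5 (chromosome 11) lay 0.50 below its neighbours, whose median was 0.024, and 2 of 30 neighbours were lower than it. DVL3, also on chromosome 3, went the other way: its neighbours had a median of -0.28, so DVL3 lay 0.66 above them and above 26 of 30. AXIN1 (chromosome 16) lay 0.61 above its neighbours, higher than 21 of 23, and AXIN2 (chromosome 17) 0.93 above, higher than 27 of 30. DVL1 (chromosome 1) lay 0.30 above, DVL2 (chromosome 17) 0.086 above and GSK3B (chromosome 3) 0.051 above. APC (chromosome 5) lay 0.019 below. With 5 genes on each side, LRP6 moved from 0.12 below its neighbours to 0.082 above, DVL2 to 0.17 below and APC to 0.34 below. CTNNB1, LRP6 and GSK3B thus lay near the genes around them, and LRP5, DVL3, AXIN1 and AXIN2 apart from theirs. Gene copy number was not measured, and its part in these ratios was not tested.

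**Figure D4:**
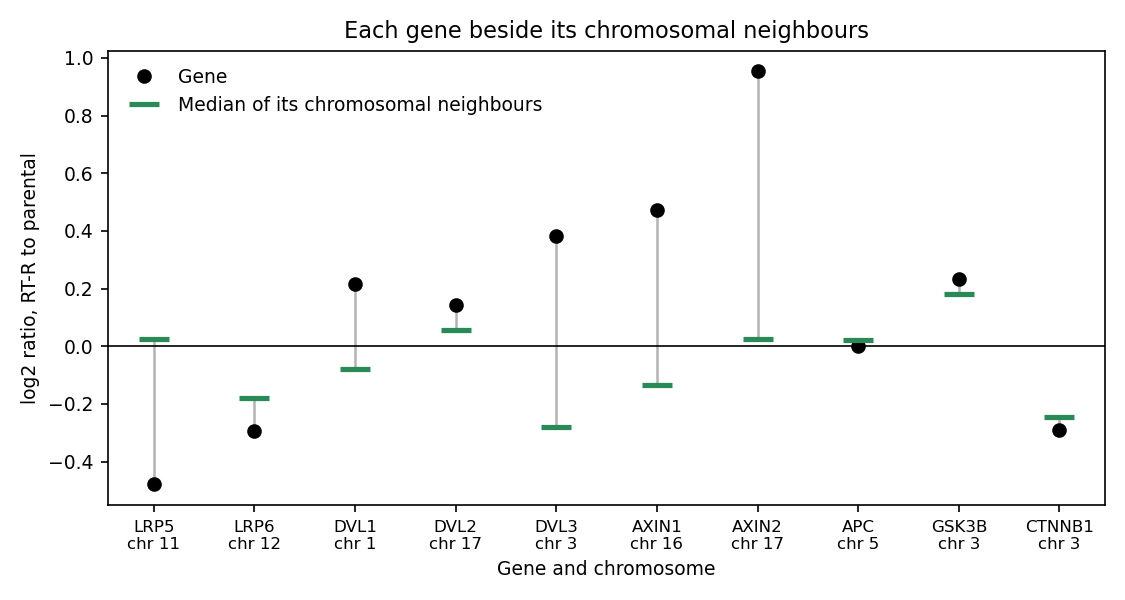
Log2 ratio of RT-R to parental for each gene (black points) and the median of its 23 to 30 measured chromosomal neighbours (green bars), with chromosome names under the gene. CTNNB1 sits close to its green bar (-0.29 and -0.24), whereas DVL3 on the same chromosome sits 0.66 above its own.

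The partners of the destruction complex lay on both sides of equality. Of 30 listed, 29 were measured, and 2 rose and 5 fell past 1.5-fold with intervals on one side of equality. The median log2 ratio was -0.00094, against -0.013 over all measured genes. Here and for the lists below, such counts stand beside 13.7% higher and 11.9% lower over all measured genes, and no list was tested. The risers were SIAH1, a ubiquitin ligase (202 and 392 counts, 1.74-fold, 1.46 to 2.07), and TNKS, the tankyrase that marks axin for degradation (130 and 251, 1.73-fold, 1.40 to 2.16). SKP1, a core subunit of the ligase that ubiquitinates beta-catenin, fell from 2265 to 1475 counts, 1.71-fold (1.60 to 1.83). The phosphatase scaffold PPP2R1B fell 1.84-fold (1.49 to 2.28) from 238 to 144 counts. The other 3, named after their values were seen, were the ligase scaffold CUL1 (1.54-fold, 1.36 to 1.76), the phosphatase subunit PPP2R5A (1.64-fold, 1.37 to 1.98) and AMER1, a membrane recruiter of APC (2.43-fold, 1.33 to 4.60). GSK3A, the paralog of GSK3B, was 1.21-fold lower (1.07 to 1.37), at 555 and 511 counts.

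Genes that act on the co-receptors were mostly scarce: 14 of 34 passed the minimum and 8 had no count in either library. RSPO1, a secreted protein that stabilises Wnt receptors, rose from 78 to 169 counts, 1.94-fold (1.48 to 2.57). SOST encodes sclerostin, a secreted inhibitor that binds LRP5 and LRP6. It fell 6.69-fold (3.28 to 15.4), with 54 parental and 9 RT-R counts. ATP6AP2, an adaptor between LRP6 and the proton pump, fell 1.77-fold (1.65 to 1.90), with 2067 and 1303 counts. RNF43, a ligase that degrades Wnt receptors, fell 2.09-fold (1.10 to 4.11), with 30 and 16 counts. TMEM59 was 1.44-fold higher (1.32 to 1.58), short of 1.5-fold. In all, 1 rose and 3 fell, with a median of 0.035. The measured genes of these lists on the X chromosome, AMER1, ATP6AP2, PORCN and TBL1X, were 4 of 4 lower in RT-R. The median of 424 measured X-linked genes was -0.78, and the part of the chromosome in their ratios was not tested.

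Frizzled receptors gave 7 of 10 measured genes, none past 1.5-fold in either direction, and a median of 0.054. By the interval bound nearest to equality, FZD2 ranked first among the higher (944 and 1215 counts, 1.15-fold, 1.06 to 1.26) and FZD4 among the lower (137 and 102, 1.498-fold lower, 1.15 to 1.96). FZD5, named after its value was seen, had a larger ratio of 1.29 on 69 and 99 counts, with an interval that included 1 (0.937 to 1.78). Of 15 Wnt ligands that usually act through beta-catenin, 4 were measured and 7 had no count in either library. WNT10A rose from 13 to 30 counts, 2.07-fold (1.05 to 4.32), while WNT7B, with 461 and 389 counts, was 1.32-fold lower (1.15 to 1.52). Among relatives of the LDL receptor, the family to which LRP5 and LRP6 belong, 11 of 14 were measured, 2 rose and 2 fell, with a median of 0.17. LRP4 rose 2.86-fold (1.60 to 5.37) from 16 to 51 counts and VLDLR 2.10-fold (1.48 to 3.02) from 47 to 110. SORL1 fell 2.69-fold (2.01 to 3.65), as did LRPAP1, a chaperone of these receptors, by 1.70-fold (1.53 to 1.89).

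Partners of Dishevelled had 14 of 20 genes measured, 3 higher and 2 lower past 1.5-fold, and a median of -0.059. NEDD4L, a ubiquitin ligase, rose from 1435 to 3392 counts, 2.12-fold (1.99 to 2.26). CXXC5, a Dishevelled-binding inhibitor, rose 1.62-fold (1.28 to 2.04), and DIXDC1, named after its value was seen, 1.67-fold (1.14 to 2.47). The planar polarity genes PRICKLE1 and PRICKLE2 fell 2.11-fold (1.52 to 2.97) and 2.24-fold (1.80 to 2.80). Nuclear partners of beta-catenin had 23 of 25 measured, 3 higher and 2 lower, and a median of -0.095. The higher 3 were the TCF/LEF genes TCF7L1 (14 and 42 counts), LEF1 (30 and 68) and TCF7 (62 and 112), whereas TCF7L2, the most counted of that family and named after its value was seen, had 659 and 705 counts and a ratio of 0.959 (0.861 to 1.07). The coactivator CREBBP fell 1.64-fold (1.35 to 1.99) and PYGO1 1.78-fold (1.36 to 2.34).

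At cell junctions, where beta-catenin binds cadherins, 12 of 16 genes were measured, with 3 higher and 4 lower (13.7% and 11.9% over all measured genes) and a median of 0.048. CDH4 rose from 397 to 1342 counts, 3.03-fold (2.71 to 3.40), and CDH3 from 9 to 62, 6.18-fold (3.05 to 14.1). CDH1, named after its value was seen, went from 32 to 68, 1.91-fold (1.23 to 2.998). Counts of CDH11 dropped from 282 to 108, which is 2.91-fold (2.32 to 3.67), and those of CDH2 from 23 to 7, which is 3.66-fold (1.52 to 10.1). The others that fell, also named after their values were seen, were CDH24 (1.94-fold, 1.13 to 3.39) and the receptor phosphatase PTPRK (1.55-fold, 1.30 to 1.86). Of the catenin genes in the list, picked after their values were seen, CTNNA1 had 1783 and 2079 counts (ratio 1.05, 0.981 to 1.11) and JUP, which encodes plakoglobin, 1727 and 1969 (ratio 1.02, 0.958 to 1.09). CTNND1 was higher, with 718 and 953 counts (ratio 1.19, 1.08 to 1.31). CTNNAL1 was lower, with 2286 and 2299 counts (ratio 0.902, 0.851 to 0.956), and CTNNA2 had no count in either library.

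Of 16 Wnt target genes, AXIN2 among them, 11 were measured. AXIN2, LEF1 and TCF7 were more than 1.5-fold higher, RNF43 and BIRC5 more than 1.5-fold lower, and the median was 0.25. LEF1 rose 2.03-fold (1.30 to 3.24) and TCF7 1.62-fold (1.18 to 2.25), while BIRC5 fell from 2148 to 1398 counts, 1.71-fold (1.60 to 1.83). The following targets were named after their values were seen: CCND1 had 4757 and 6336 counts (ratio 1.19, 1.15 to 1.24), DKK1 520 and 761 (1.31, 1.17 to 1.47) and SP5 59 and 62 (0.942, 0.649 to 1.37). NKD1, named likewise and under the minimum, had 1 and 12 counts. Of the 11 measured targets, 8 had a log2 ratio above 0 and 3 below, against 49.0% above 0 over all measured genes. Targets were thus found on both sides of equality, with more above it.

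**Figure D5:**
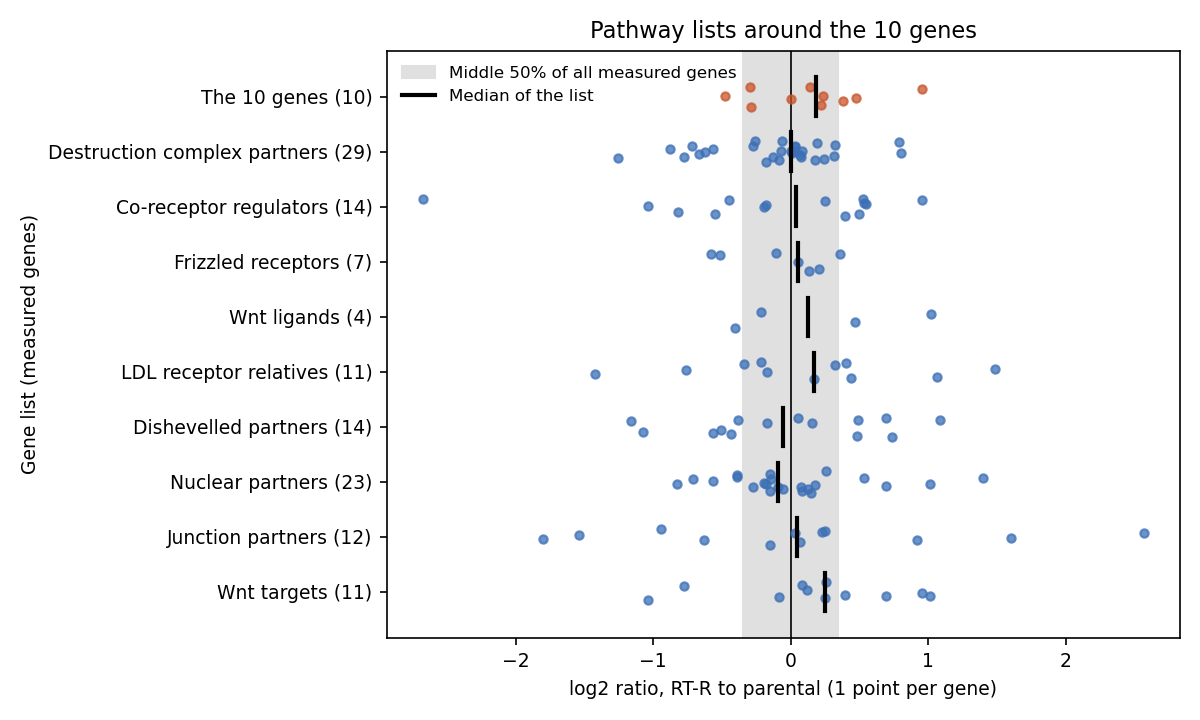
Log2 ratio of RT-R to parental for the 10 genes (orange) and for the measured genes of 9 lists around them (blue, 1 point per gene, number in brackets). Black bars are list medians and grey shading the middle 50% of all measured genes. The medians lie between -0.095 and 0.25, inside the shading, with single genes far outside it such as SOST and CDH3.

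The genes of these lists with the log2 ratio nearest to that of LRP6 (-0.29) were GSK3A (-0.28), RUVBL1 (-0.27) and PPP2CA (-0.26), over 2 libraries. The same 3 were nearest to CTNNB1. Since 2 libraries give each gene 1 ratio, this likeness is a closeness of single values and nothing more.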

How the data were processed

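Libraries were made from total RNA of both lines with the Lexogen 3′ tag kit, per the labels' protocols. The authors deposited raw counts per gene symbol, without normalization. The submitters' processing notes name bcl2fastq 2.20.0.422, Bowtie2, bedtools and hg19. The annotation, the use of strand and the treatment of multiply mapped reads are not stated there, so overlapping genes cannot be told apart with certainty.

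Repeated symbols were summed (25737 rows, 24462 symbols), and each of the 10 genes had 1 row. Libraries were scaled by TMM in edgeR 4.0.16 (R 4.3.3), used for scaling alone, giving a size ratio of 1.12. Log2 ratios used scaled counts plus 0.5, and fold thresholds were applied to them. Ratios and odds ratios have exact conditional 95% intervals, and shares exact Clopper-Pearson ones (scipy 1.17.1). PCR reads are not independent molecules. The ratio calculation was run on simulated Poisson counts. These hold no PCR or culture variation, so the run checks the calculation and not the fit of the intervals to real libraries. Gene order, for 98.6% of measured genes, came from RefSeq GRCh38.p14, whose build differs from hg19. No coordinates are printed other than the promoter positions, which are on GRCh38.p14 and not on hg19. Overlaps came from GENCODE v29, and promoter sequences and their positions from the RefSeq table. Some annotated genes that overlap LRP6, DVL1, AXIN2, APC or GSK3B are not among the counted symbols, so their reads could not be examined.

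The 10 genes and the lists were chosen with earlier results of these data known. Named genes are the 10, up to 2 highest and 2 lowest per list by the interval bound nearest to 1, and the 3 nearest in ratio to LRP6 and CTNNB1. Other genes of the lists (such as CUL1, TCF7L2, CTNNA1, JUP, CCND1, DKK1, SP5 and NKD1) were named after their values were seen. Alternatives were other scalings (total counts, DESeq2 1.42.0 median of ratios, upper quartile), a pseudocount of 5, minimums of 0 and 100 counts, 5 or 30 neighbours on each side, the highest row per symbol, and each complex gene alone.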

Additional observations from a re-analysis of the deposited data

How the results depend on the processing

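The log2 ratios of the 10 genes kept their direction and stayed within their counting intervals under all 3 other scalings and a pseudocount of 5. Scaling by total counts raised the median of all measured genes from -0.013 to 0.030. Under that scaling the ratio of AXIN2 was 2.02 (1.19 to 3.51), but its log2 ratio with the pseudocount, 0.996, stayed short of 2-fold. With a minimum of 100 counts AXIN2 was no longer measured, so the number of the 10 genes higher at 1.5-fold went from 1 to 0. With 5 neighbours on each side, the difference from the neighbour median became -0.69 for LRP5, -0.17 for DVL2 and -0.34 for APC. Against CTNNB1, the complex odds ratio of 1.43 became 1.23 with APC alone, 1.70 with AXIN1 alone and 2.39 with AXIN2 alone. Shares within families did not change with the highest row per symbol, since each gene had 1 row. Of the 1.5-fold counts of the 9 lists, 11 of 90 alternative values differed by more than 1.5 times, all under other count minimums. No paired analysis was possible because each line had 1 library, and for the same reason no replicate could be left out. Depth limits AXIN2 most, with 22 and 48 counts.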
